A study of Mus musculus with 42 samples.

Results

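The association of RNAs with HA-tagged Tnrc6a in mouse embryonic stem cells was measured as the recovery that depended on the tag in experiment 1 of the study. The libraries were those labelled as experiment 1 and as tagged or untagged cells, which gave 12 of the study's 42 libraries. They comprised 3 inputs and 3 immunoprecipitates (IPs) of cells with the HA tag on Tnrc6a, and 3 inputs and 3 IPs of cells without it. The growth protocol, given alike for all 4 groups, names 129S6/SvEvTac embryonic stem cells (mES) with the reporter labelled yGlob GFP_5xT71BS and a stable FLAG-Cas9::T2A::Blasticidin transgene. The treatment label repeats all of these for the untagged cells, and for the tagged cells it gives GFP_5xT71BS and HA-AVI-Tnrc6a alone. The untagged cells served as the control for RNA recovered without the tag. Cells grew on gelatin in medium with serum and LIF, triplicate dishes were lysed, and lysates with equal protein were incubated with HA magnetic beads before total RNA libraries were made with a stranded kit. Whether the dishes came from separate clones or days is not given in the sources used here, so p-values measure the spread between dishes.

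Tnrc6a is a GW182-family protein. Argonaute proteins loaded with microRNAs bind mRNAs through the microRNA's seed and bring in GW182 proteins, which in turn recruit deadenylases, so that the mRNA is repressed and degraded. In embryonic stem cells most microRNA molecules belong to the miR-290 and miR-302 clusters and the related miR-17 family, and TRIM71 is a stem cell RNA-binding protein that also silences mRNAs. The question was therefore which functional classes of RNA came down with Tnrc6a and which were left behind.

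The microRNA seeds are shown first because the genes most often reported as miR-290 targets form one of the groups below. Mature sequences are from RefSeq, build GRCm38.p6, written 5′ to 3′, with the seed, bases 2 to 8, in capitals.
mmu-miR-291a-3p: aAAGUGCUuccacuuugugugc
mmu-miR-294-3p: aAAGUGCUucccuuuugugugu
mmu-miR-295-3p: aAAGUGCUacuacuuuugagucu
mmu-miR-302b-3p: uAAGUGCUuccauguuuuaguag
mmu-miR-302d-3p: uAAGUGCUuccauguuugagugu
mmu-miR-290a-3p: aAAGUGCCgccuaguuuuaagccc
mmu-miR-291b-3p: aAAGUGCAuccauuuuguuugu
mmu-miR-17-5p: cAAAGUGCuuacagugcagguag
mmu-miR-93-5p: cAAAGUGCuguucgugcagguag
The seed AAGUGCU is held by 5 of 1679 mature mouse microRNAs in the table, and these are the first 5 lines. The first 3 lie on the plus strand of chromosome 7 in the miR-290 cluster, at chr7:3218968-3218989, chr7:3220691-3220712 and chr7:3220815-3220837. The miR-302 members lie on the plus strand of chromosome 3, at chr3:127545275-127545297 and chr3:127545665-127545687. In the same miR-290 cluster, miR-290a-3p at chr7:3218674-3218697 and miR-291b-3p at chr7:3219529-3219550 differ from that seed in its last base. The seed AAAGUGC, held by 7 mature microRNAs, is the same run of letters shifted by 1 base and is found in miR-17-5p (chr14:115043684-115043706, plus strand) and in miR-93-5p (chr5:138165574-138165596, minus strand). Mature microRNAs were not measured in these libraries. Gene coordinates below are those of RefSeq on the same build.

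Each library held between 14598744 and 23657840 counts over 18825 genes. Levels are given as CPM, counts scaled to a common library size of 1000000 with TMM-adjusted totals, always in the order of replicates 1, 2 and 3. The quantity tested is the tag-specific enrichment, the IP-to-input ratio of tagged cells minus that of untagged cells, both in log2, so 0 means that tag and no tag recovered a gene alike. It was fitted with edgeR's quasi-likelihood test, and genes are called higher or lower where p, after Benjamini-Hochberg adjustment for the 18772 genes in the fit, was under 0.05. Groups are said not to overlap where all 9 IP-input differences of the tagged libraries lay above, or all below, all 9 of the untagged ones. The 11 embryonic stem cell markers, Pou5f1, Nanog and Sox2 among them, summed to between 7505 and 8568 CPM in the inputs, against 66.5 to 89.3 CPM for 8 primitive endoderm markers and 94 to 105 CPM for the 5 neural markers measured. The 4 fibroblast and 5 trophoblast markers in the table reached at most 34.9 and 29.5 CPM. Tagged input replicate 2 stood apart from its 2 partners, with a chi-square per gene of 28.15 and 13.74 against 8.269 between them, and so did untagged IP replicate 2, at 15.88 and 13.2 against 4.489. The 3 pairs of tagged IPs differed about as much, at 15.24, 15.58 and 12.24, with no 1 library apart. The 12 pairs of replicates started at 2.871. Counts that rest on tagged input replicate 2 or untagged IP replicate 2 are given without it too.

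Tnrc6a itself, the mRNA of the tagged protein, had the highest enrichment of the genes that met the rule for naming. Tnrc6a (chr7:123031101-123195296) was listed at 105, 97.4 and 104 CPM in untagged inputs, at 89.6, 94 and 93.7 CPM in untagged IPs and at 95.1, 57.1 and 81.9 CPM in tagged inputs. In the tagged IPs it reached 19736, 19643 and 29473 CPM. Every tagged IP thus stood far above the other 9 libraries, and the enrichment was 8.34 on the log2 scale, or 324-fold (SE 0.28, edgeR adjusted p 3.07e-17). Reads of the Tnrc6a gene made up between 1.7045% and 2.4358% of all counts of a tagged IP.

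More than the RNA of a few targets differed. Of 18772 genes 10688 (56.9%) were called, 5276 (28.1%) higher and 5412 (28.8%) lower, with a median over all genes of -0.10 and a median SE of 0.214. At least 2-fold differences were called for 3601 genes (19.2%) on the higher side and for 2150 (11.5%) on the lower side, so more of the large differences were on the higher side. In bulk RNA fewer cells of a type and less RNA per cell cannot be told apart. Without tagged input replicate 2, 10201 genes were called, 5368 higher and 4833 lower, and without untagged IP replicate 2, 10162 genes, 5303 higher and 4859 lower. The 9 IP-input differences of the groups did not overlap for 4838 genes (25.8%) on the higher side and 4732 (25.2%) on the lower side.

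The shares of sequenced RNA moved accordingly. Genes called higher took 55.3%, 50.6% and 54.3% of all counts in the tagged IPs, and 21.9%, 19% and 20.6% in the tagged inputs. In the untagged IPs the same genes took 16.3%, 15.2% and 16.3%, below their 21.7%, 21.5% and 21.8% in untagged inputs. Genes called lower took 57.2%, 62% and 59.2% of the tagged inputs but 29.1%, 33.5% and 30.6% of the tagged IPs. In untagged cells they took 57.2%, 57.3% and 57% of the inputs and more of the IPs, 66.8%, 68.4% and 66.6%. Bcar1, a gene called lower, alone made up 9.645%, 12.094% and 9.985% of all counts of the untagged IPs. That row lowers the share of every other gene there, so the rise is not one of the set as a whole. Both sets of genes were chosen by the same comparison, so the shares describe the size of the shift and test nothing. Because counts are shares of a library, a lower value says that a gene lost ground to others in the IP and not that fewer molecules bound the beads.

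Most calls were also seen in the tagged cells alone. In tagged cells alone, IP against input called 12420 genes, 6088 higher (32.4%) and 6332 lower (33.7%), and 4977 (94.3%) of the genes called higher in the enrichment were among those gains. Of the 5412 genes called lower, 4808 (88.8%) fell in the tagged IP, and 736 (13.6%) were above input in the untagged IP. The tagged and untagged ratios are the parts of the enrichment and come from the same libraries, so these overlaps are a description. In untagged cells 2273 genes (12.1%) differed between IP and input, 1354 higher (7.21%) and 919 lower (4.9%). That count fell to 1370 without untagged IP replicate 2, to 1431, 1446 and 1447 without untagged input replicate 1, 2 or 3, and to 1101 with the replicate number as a block. Scaling by library size alone moved the median of IP against input from -0.09 to -0.45 in tagged cells and from -0.03 to -0.42 in untagged cells, and the share of calls on the higher side from 49% to 33.5% and from 59.6% to 4.88%. In experiment 1 that shift was alike in both lines and so largely cancelled in the enrichment. Under this scaling the enrichment had a median of -0.06 and 51.4% of its calls on the higher side, against -0.10 and 49.4%.

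**Figure D1:**
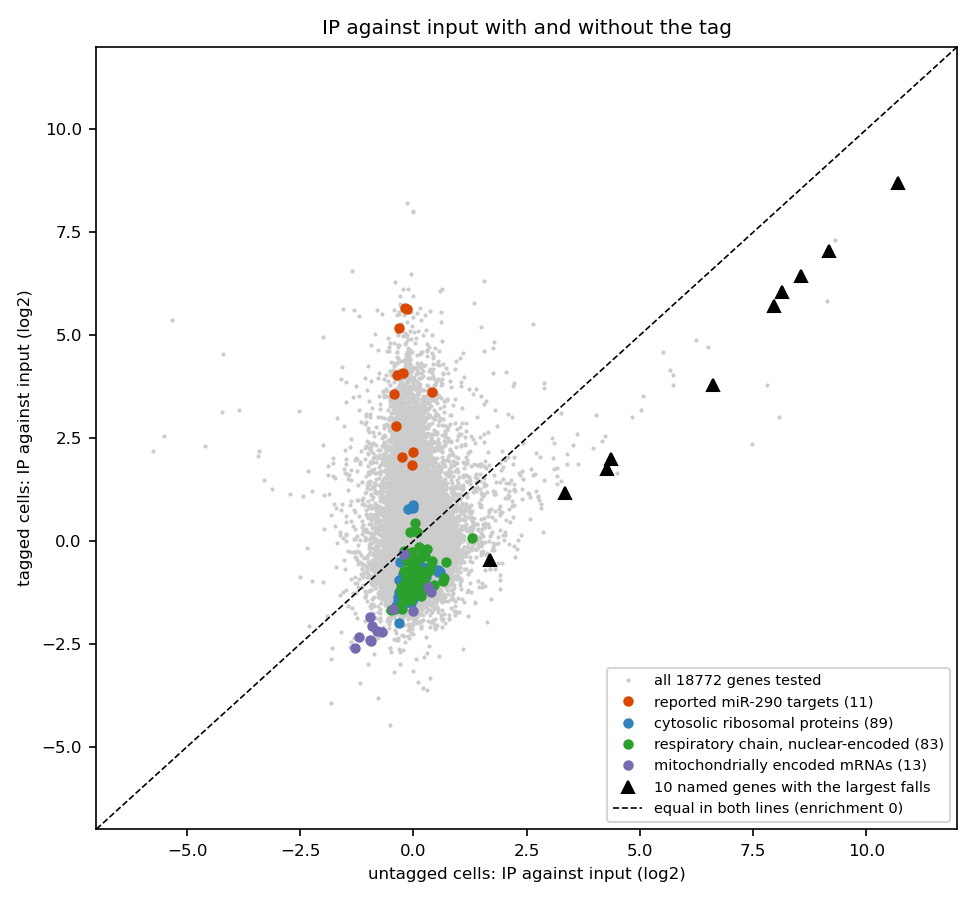
Each point is 1 of the 18772 genes tested, with the IP-to-input ratio (log2) of untagged cells on the horizontal axis and of tagged cells on the vertical axis (3 libraries per group). The dashed line marks equal values. The 11 reported miR-290 targets lie high above it near 0 on the horizontal axis, ribosomal protein and respiratory chain genes lie below it, and the 10 named genes with the largest falls (triangles) lie far to the right.

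Inputs of tagged and untagged cells also differed, with 1983 genes (10.6%) called, 1069 higher (5.69%) and 914 lower (4.87%) in tagged cells. That count rested on single libraries. It was 3053 without tagged input replicate 1, 722 without tagged input replicate 2, and 879, 918 and 1099 without untagged input replicate 1, 2 or 3. With library size alone 35.3% of these calls were on the higher side in place of 53.9%. The enrichment subtracts the input of each line, so such a difference cancels only where the IPs of both lines differ alike. Elsewhere it enters the value of the gene.

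The mRNAs of the silencing machinery were themselves recovered. All 3 GW182 genes and all 4 Argonaute genes were called higher, with list medians of 2.74 and 2.34 on the log2 scale, where 28.1% of all genes were called higher and their median was -0.10. Ago1 (chr4:126435012-126468707), a small-RNA effector, stood at 83.8, 51 and 65.2 CPM in tagged inputs and at 820, 777 and 992 CPM in tagged IPs. Its untagged IPs, at 68.6, 63.2 and 74 CPM, were below their inputs of 88, 88 and 93 CPM, so only the tagged IPs were high, and the enrichment was 4.08 (SE 0.20, edgeR adjusted p 1.78e-14). Ago2, the Argonaute that can cleave its targets, went from 358, 179 and 255 CPM to 1024, 1266 and 1630 CPM in tagged cells, an enrichment of 2.86 (SE 0.25). Ago3 reached 1.53 (SE 0.21). The paralogue Tnrc6b rose from 51.8, 32.3 and 42.8 CPM to 213, 254 and 297 CPM, and its groups did not overlap, at an enrichment of 2.74 (SE 0.21). Tnrc6c stood at 1.83 (SE 0.15). Ago4 was the exception in precision, at 2.74, 3.54 and 3.95 CPM in tagged IPs, an enrichment of 1.83 (SE 0.64, edgeR adjusted p 0.017) with overlapping groups, which became 2.57 without tagged input replicate 3 and 2.68 without untagged IP replicate 3. Trim71 mRNA, at 265, 227 and 230 CPM in tagged inputs and 968, 973 and 1110 CPM in tagged IPs, was enriched by 2.42 (SE 0.12).

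Genes that make microRNAs were called on both sides. Of 13 such genes 5 were called higher (38.5%) and 4 lower (30.8%), near the 28.1% and 28.8% of all genes, with a median of 0.25. Lin28a, which blocks let-7 maturation, was the highest at 1.80 (SE 0.17, edgeR adjusted p 3.77e-09), from 258, 275 and 266 CPM in tagged inputs to 974, 700 and 791 CPM in tagged IPs. Dicer1, which cuts precursors, was raised by 0.61 (SE 0.14). Dgcr8, the partner of Drosha, was lower at -0.71 (SE 0.13), and Ran, which drives nuclear export, at -0.79 (SE 0.14). Neither of these falls reached 2-fold, and in each the groups did not overlap.

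Further along the pathway, 18 of 32 genes of deadenylation, decapping and P-bodies were called higher (56.2%) and 8 lower (25%), with a median of 0.57. Over all genes 28.1% were called higher and 28.8% lower. The highest were Tob2, Btg2 and Cnot6l. Tob2, a bridge between RNA-binding proteins and the CCR4-NOT deadenylase, went from 16.7, 14.3 and 16.5 CPM in tagged inputs to 420, 377 and 495 CPM in tagged IPs while untagged IPs held 13.8, 14.9 and 15.4 CPM. Its enrichment was 5.10, or 34.3-fold (SE 0.17, edgeR adjusted p 3.57e-17). Btg2, of the same protein family, stood at 518, 498 and 512 CPM in tagged IPs against 20.9 to 27.9 CPM over the other 9 libraries, an enrichment of 4.40 (SE 0.12). Cnot6l, a catalytic subunit of CCR4-NOT, was enriched by 4.31 (SE 0.18). By contrast Cnot10, a further CCR4-NOT subunit, was lower at -0.83 (SE 0.12), the P-body component Lsm14a at -0.68 (SE 0.13) and the deadenylase subunit Pan2 at -0.67 (SE 0.14).

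Most RNA-binding regulators of mRNA were on the higher side, with 19 of 26 called higher (73.1%) and 3 lower (11.5%, median 1.45). All genes gave 28.1% and 28.8%. Mbnl1, a splicing regulator, was listed at 6.06 to 11.9 CPM over the untagged libraries and tagged inputs and at 285, 286 and 330 CPM in the tagged IPs, an enrichment of 4.95 (SE 0.21, edgeR adjusted p 1.94e-15). Nanos1, a translational repressor, reached 4.00 (SE 0.20). Zfp36, which directs decay of AU-rich mRNAs, reached 3.52 (SE 0.15). The stabilising factor Elavl1 lay on the other side at -0.59 (SE 0.12), as did Fxr2 at -0.50 (SE 0.11).

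Genes reported as miR-290 targets had one of the highest list medians. All 11 were called higher and at least 2-fold, with enrichments between 1.87 and 5.84 and a median of 3.99, where 19.2% of all genes were called higher by 2-fold or more. Summed over the list, they took on average 0.506% of the counts of tagged IPs against 0.0427% of tagged inputs, 0.031% of untagged IPs and 0.0442% of untagged inputs. These genes were put together as microRNA targets and not by any seed match scored here. The list was chosen with earlier results of these data known, so its counts are a description and test nothing.

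Cell-cycle and death regulators led that list. Cdkn1a (chr17:29090979-29100722), the p21 inhibitor of cyclin-dependent kinases, stood at 33.9, 31.2 and 31.8 CPM in untagged inputs, 28.7, 28 and 29.1 CPM in untagged IPs and 22.9, 27.6 and 23.5 CPM in tagged inputs. The tagged IPs held 1369, 1175 and 1208 CPM, far outside the range of the other libraries, and the enrichment was 5.84, or 57.3-fold (SE 0.14, edgeR adjusted p 3.33e-19). Rbl2, the pocket protein p130 that represses E2F targets, went from 8.62, 6.94 and 6.01 CPM to 369, 339 and 365 CPM in tagged cells, an enrichment of 5.79 (SE 0.21). Casp2, a caspase (chr6:42264902-42282508), was listed at 25.7, 23.9 and 21.2 CPM and 22.4, 15.9 and 18.8 CPM in untagged inputs and IPs, and at 28.2, 19.2 and 19.2 CPM in tagged inputs. Its tagged IPs held 812, 699 and 880 CPM, and the enrichment was 5.49 (SE 0.22, edgeR adjusted p 8.49e-16). Ei24, a gene of the p53 response, rose from 131, 140 and 124 CPM to 2430, 1802 and 2208 CPM between tagged input and IP (enrichment 4.40, SE 0.16). In every one of these 4 genes the mean of the untagged IPs lay below that of their inputs, and the tagged IP was the only high group.

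The remaining miR-290 targets spanned a wider range. Lats2, a Hippo kinase, was counted at 114, 85.5 and 109 CPM in tagged IPs against 4.07 to 6.77 CPM elsewhere (4.32, SE 0.29) on the row ENSMUSG00000021959. A second row with that symbol, ENSMUSG00000114942, had an enrichment of 3.46, and reads may be split between both. Tgfbr2, a TGF-beta receptor, held few reads in input, 2.52, 1.61 and 1.29 CPM in tagged cells, and 24.3, 19.1 and 20.4 CPM in the tagged IPs (3.99, SE 0.48). Wee1, the kinase that delays mitosis, was enriched by 3.20 (SE 0.16) although its untagged IP was also above input, by 0.40. Dkk1, a secreted Wnt inhibitor, reached 3.18 (SE 0.54), and 3.97 without untagged IP replicate 2. At the lower end were the F-box gene Fbxl5 at 2.29 (SE 0.14), the kinase Akt1 at 2.16 (SE 0.14) and the small GTPase Rhoc at 1.87 (SE 0.15). None of these 3 had overlapping groups.

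All 9 genes reported as TRIM71 targets were called higher as well, with a median of 4.01, or 3.10 with the libraries of Hoxa5 that held 3 counts or fewer set to that floor. Cdkn1a, Rbl2 and Mbnl1, given above, are 3 of the 9, and 2 of them are on the miR-290 list too. The TRIM71 list was likewise chosen with earlier results of these data known. Inhbb, a subunit of the TGF-beta family ligands activin and inhibin, stood at 218, 226 and 245 CPM in tagged inputs and 3131, 2666 and 2903 CPM in tagged IPs, an enrichment of 4.01 (SE 0.17, edgeR adjusted p 1.02e-15). Its untagged IPs, at 190, 198 and 193 CPM, were below their inputs at 242, 247 and 251 CPM. Rbl1, the pocket protein p107, was enriched by 2.06 (SE 0.17) and the semaphorin receptor Plxnb2 by 2.29 (SE 0.18). Egr1, an immediate early transcription factor, was enriched by 1.28 (SE 0.23) and its co-repressor Nab2 by 0.80 (SE 0.14), the smallest value of the list. Hoxa5, a homeobox gene, had 0, 0 and 3 counts in tagged inputs and 31, 31 and 32 in tagged IPs, which is at least 13.9-fold higher against a floor of 3 counts per library.

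**Figure D2:**
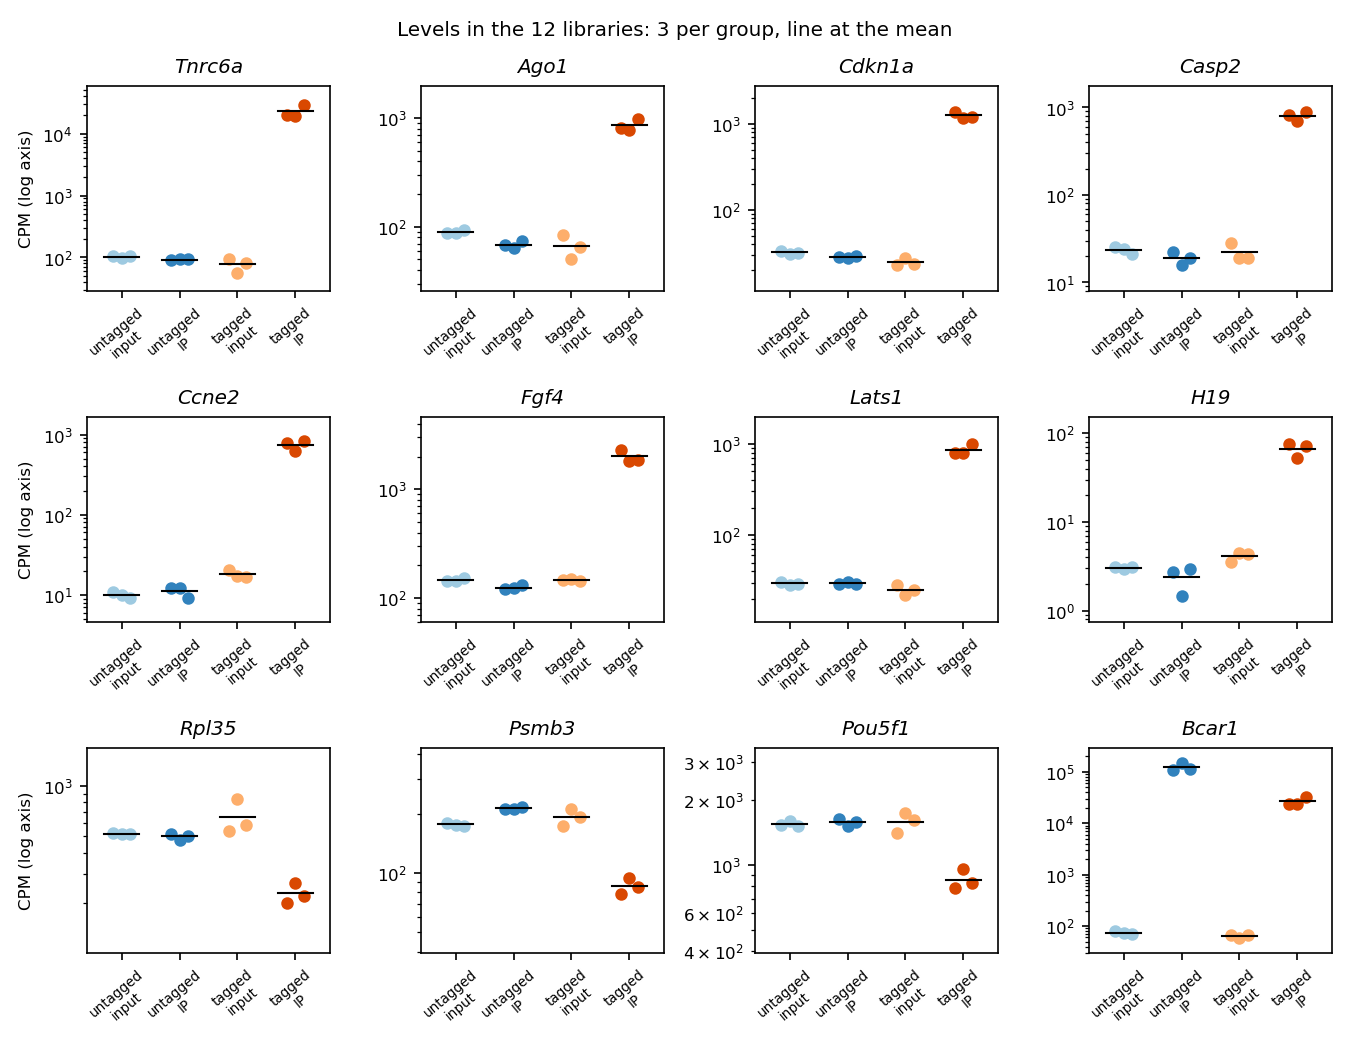
CPM on a logarithmic axis for 12 genes in the 12 libraries, with 1 point per library, replicates 1 to 3 from left to right within a group, and a line at the mean. In the upper 8 panels the 3 tagged IPs lie above the other 9 libraries, in Rpl35, Psmb3 and Pou5f1 they lie below them, and in Bcar1 both kinds of IP lie above the inputs, with the untagged IPs highest.

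Brakes and drivers of the cell cycle were both recovered in part. Of 12 cell-cycle brakes 7 were called higher (58.3%) and 3 lower (25%), with a median of 1.29, where all genes gave 28.1% and 28.8%. Of 13 cyclins and cyclin-dependent kinases 7 were called higher and 1 lower (median 0.36). The 1 lower became 2 without tagged IP replicate 1 or tagged input replicate 1. Among the brakes, Cdkn1b, the p27 inhibitor, was enriched by 2.08 (SE 0.14), Rb1 by 1.78 (SE 0.18) and Cdkn2d by 0.79 (SE 0.21). Cdkn2a was lower at -1.19 (SE 0.36) at 2.36, 0.922 and 1.94 CPM in tagged IPs, and Pkmyt1, a kinase that holds back mitosis, at -0.55 (SE 0.14). Cdkn1c, at -0.66 (SE 0.23), lost its call without tagged IP replicate 2 (-0.55), tagged input replicate 2 (-0.45) or untagged input replicate 1 (-0.58). Cdkn2b and Cdkn2c did not pass the test, at 0.08 (SE 0.74) and 0.54 (SE 0.61).

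Ccne2, the E-type cyclin of S-phase entry (chr4:11190433-11204779), was the highest cyclin. It was listed at 10.7, 10 and 9.25 CPM in untagged inputs, 12.1, 12.3 and 9.12 CPM in untagged IPs, 20.2, 17 and 16.9 CPM in tagged inputs and 777, 630 and 828 CPM in tagged IPs. Its enrichment was 5.21, or 37.1-fold (SE 0.21, edgeR adjusted p 6.8e-16), and tagged inputs were also above untagged ones. The D-type cyclins Ccnd1 and Ccnd2 were enriched by 2.19 (SE 0.17) and 2.15 (SE 0.28). The mitotic cyclin Ccnb2 was called lower at -0.93 (SE 0.13), but there the difference arose in the untagged cells, whose IPs held 288, 287 and 253 CPM against inputs of 120, 121 and 124 CPM, while tagged IPs held 170, 149 and 150 CPM.

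Regulators of cell death and of the p53 response lay mostly on the higher side. Of 17 genes of the p53 response measured 14 were called higher (82.4%) and 1 lower (5.88%, median 1.35). Of 15 Bcl2-family genes 8 were called higher (53.3%) and 2 lower (13.3%, median 0.51), where all genes gave 28.1% and 28.8%. The 1 gene of the p53 response called lower was Trp53 itself, at -0.36 (SE 0.13, edgeR adjusted p 0.0176). That call was lost without any 1 of 5 libraries, tagged input replicate 3, untagged IP replicates 1 and 2 or untagged input replicates 2 and 3, at -0.28 to -0.31. Bcl2l11, the death activator Bim, went from 23, 20.5 and 21.3 CPM to 517, 465 and 594 CPM in tagged cells, an enrichment of 4.05 (SE 0.16, edgeR adjusted p 3.59e-16). The survival gene Mcl1 was enriched by 2.40 (SE 0.14) and Bbc3, the death activator Puma, by 1.35 (SE 0.18). Bax, which permeabilises mitochondria, was lower at -0.68 (SE 0.14) and the survival gene Bcl2l2 at -0.85 (SE 0.15), so activators and inhibitors of death were found on each side.

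The TGF-beta superfamily, which signals through receptors and Smads, was described by its receptors and its ligands. Of 19 receptors and Smads of the TGF-beta superfamily 14 were called higher and the other 5 did not pass the test, although 1 was called lower without untagged IP replicate 1, with a median of 1.26, or 1.04 with the 3-count floor applied to Smad9. Of 9 ligands and co-factors measured 3 were called higher (33.3%) and 2 lower (22.2%), near the 28.1% and 28.8% of all genes (median -0.20). Of these 2 falls, that of Bmp4 at -0.34 (SE 0.14) was lost in most alternative settings. Among those settings was the omission of any 1 of the tagged inputs or untagged IPs. Besides Tgfbr2, the type I receptor Tgfbr1 was enriched by 2.89 (SE 0.26) and the signal transducer Smad2 by 2.02 (SE 0.15). The Nodal inhibitors Lefty1 and Lefty2 were enriched by 3.19 (SE 0.28) and 2.13 (SE 0.24), Lefty1 from 2.83, 2.35 and 2.36 CPM to 24.7, 19.4 and 17.7 CPM between tagged inputs and IPs. Nodal itself stood at 17.4, 17.1 and 15 CPM in tagged IPs and 22.2, 27.9 and 24.4 CPM in tagged inputs, and its enrichment of -0.20 (SE 0.18) did not pass the test. Gdf3, a ligand of the same family, was lower at -0.75 (SE 0.14).

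The Hippo pathway restrains growth by keeping Yap1 out of the nucleus. Of its 22 genes listed 14 were called higher (63.6%) and 4 lower (18.2%, median 1.14), where all genes gave 28.1% and 28.8%. Lats1 (chr10:7681200-7716461), the kinase that phosphorylates Yap1, stood at 30.5, 28.5 and 29.4 CPM and 29.2, 30.9 and 29.2 CPM in untagged inputs and IPs and at 28.6, 22.2 and 24.9 CPM in tagged inputs. Its tagged IPs held 786, 794 and 982 CPM, an enrichment of 5.07, or 33.5-fold (SE 0.17, edgeR adjusted p 4.14e-17). The kinase activator Mob1b was enriched by 3.21 (SE 0.20). Yap1 was called lower at -0.94 (SE 0.20) and the upstream kinase Stk3 at -0.93 (SE 0.19). For Yap1 the untagged IPs had risen to 411, 474 and 360 CPM from inputs of 167, 166 and 169 CPM, and tagged IPs lay at 192, 242 and 246 CPM against inputs of 188, 162 and 178 CPM. Amot, a Yap1-binding scaffold, at -1.50 (SE 0.47), rested on untagged IP replicate 2, without which it was -0.82 and did not pass.

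Of 27 Wnt pathway genes 16 were called higher (59.3%) and 3 lower (11.1%, median 0.65), where all genes gave 28.1% and 28.8%. The receptor Fzd6 rose from 6.83, 5.33 and 6.66 CPM in tagged inputs to 134, 109 and 141 CPM in tagged IPs (enrichment 4.69, SE 0.31, edgeR adjusted p 4.37e-12). Znrf3, which removes Wnt receptors from the surface, was enriched by 3.78 (SE 0.20) and the receptor Fzd10 by 2.57 (SE 0.24). Ctnnb1, the pathway's transcriptional co-activator beta-catenin, went the other way, from 624, 588 and 624 CPM to 235, 340 and 307 CPM (enrichment -1.19, SE 0.15). Dvl2, which relays the receptor signal, was lower at -0.67 (SE 0.12). The other Wnt gene called lower, Fzd7, lost its call in most alternative settings, among them the omission of any 1 untagged library.

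The feedback inhibitors of FGF signalling were uneven. Of 8 measured 5 were called higher (62.5%, against 28.1% of all genes), with a median of 0.63. The other 3 did not pass, 1 of them being called lower without tagged IP replicate 3. Spry4 rose from 273, 203 and 237 CPM to 1832, 1691 and 2194 CPM in tagged cells (enrichment 3.33, SE 0.17, edgeR adjusted p 4.49e-14), Spred2 was enriched by 2.29 (SE 0.17) and Spry2 by 1.58 (SE 0.13). Spred1 stood at 0.82 (SE 0.14), and Spry1 at 0.45 (SE 0.18), which did not pass without tagged IP replicate 2 or 3, tagged input replicate 1 or untagged IP replicate 3. The phosphatases Dusp4 and Dusp6, with values of -0.40 (SE 0.21) and 0.11 (SE 0.12), did not pass the test. The ligand Fgf4 (chr7:144861386-144865245), a marker of embryonic stem cells, was far higher. It stood at 142, 145 and 152 CPM in untagged inputs, 120, 124 and 131 CPM in untagged IPs, 147, 151 and 144 CPM in tagged inputs and 2310, 1830 and 1871 CPM in tagged IPs, and was enriched by 3.99, or 15.9-fold (SE 0.18, edgeR adjusted p 3.5e-15).

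Genes of the immediate early response were recovered widely. Of 18 listed 14 were called higher (77.8%) and 1 lower (5.56%), where all genes gave 28.1% and 28.8%. The list median of 2.13 did not move with the floor applied to Egr3. Fosl2, an AP-1 subunit, went from 1.97, 1.49 and 0.752 CPM to 29.6, 33.2 and 36.6 CPM (enrichment 4.95, SE 0.41), and Ier5 from 1.97, 3.15 and 2.15 CPM to 94.8, 70.8 and 69.5 CPM (enrichment 4.60, SE 0.30, edgeR adjusted p 3.55e-12). The stress-response factor Atf3 was enriched by 3.37 (SE 0.23). The growth regulator Myc was the one called lower, at -0.81 (SE 0.16), with 58.1, 60.4 and 52.3 CPM in untagged IPs against 34.9, 34.4 and 45.5 CPM in tagged IPs. Its untagged inputs held 37.9, 40.2 and 33.3 CPM and its tagged inputs 45.2, 42.3 and 44.2 CPM, so the untagged IPs were the high group.

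The pluripotency transcription factors showed no common direction. Of 16 genes 7 were called higher (43.8%) and 4 lower (25%), with a median of 0.10, where all genes gave 28.1% and 28.8%. Klf2 was the highest, from 237, 310 and 309 CPM in tagged inputs to 3537, 2718 and 2769 CPM in tagged IPs (enrichment 2.73, SE 0.18, edgeR adjusted p 4.33e-12), and Klf4 was enriched by 1.51 (SE 0.14). Stat3, which transmits the LIF signal, was enriched by 1.79 (SE 0.14), and Sox2 by 0.76 (SE 0.13). Pou5f1, which encodes Oct4, held 1536, 1606 and 1524 CPM in untagged inputs, 1635, 1514 and 1587 CPM in untagged IPs and 1414, 1739 and 1618 CPM in tagged inputs. Its tagged IPs fell to 784, 958 and 828 CPM, below every other library, a difference of -0.91 (SE 0.15, edgeR adjusted p 1.66e-05). Nanog was lower at -0.55 (SE 0.13) and Nr0b1 at -0.77 (SE 0.13). The other gene called lower, Zfp42, lost its call in most alternative settings, among them the omission of any 1 input or untagged IP. Esrrb, at 0.04 (SE 0.13), did not pass the test.

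Chromatin regulators were mixed in the same way. Of 26 Polycomb group genes 14 were called higher and 3 lower (median 0.49). Phc3, a subunit of the Polycomb repressive complex that modifies histone H2A, went from 22.5, 12.9 and 14.3 CPM to 566, 633 and 711 CPM in tagged cells (enrichment 5.53, SE 0.23, edgeR adjusted p 1.07e-15), and the chromobox gene Cbx6 from 85.7, 78.2 and 85.9 CPM to 1699, 1510 and 1773 CPM (enrichment 4.49, SE 0.13). The paralogous methyltransferases moved apart, with Ezh1 at 2.40 (SE 0.15) and Ezh2 at -0.48 (SE 0.11), and their partner Eed was lower at -0.78 (SE 0.11). Among 36 chromatin remodellers and histone modifiers 13 were called higher (36.1%) and 8 lower (22.2%), with a median of 0.20. All genes gave 28.1% and 28.8%. The histone methyltransferase genes Nsd3, Setd1b and Kmt2a were enriched by 3.96 (SE 0.16), 3.31 (SE 0.27) and 2.35 (SE 0.26). Smarca5, a remodelling ATPase, was lower at -0.93 (SE 0.14). Setd2 was lower at -1.34 (SE 0.21) while above input in both kinds of IP, by 0.84 in tagged and 2.18 in untagged cells.

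In the DNA methylation system 4 of 13 genes were called higher (30.8%) and 5 lower (38.5%), where all genes gave 28.1% and 28.8%, so the counts are near the background. The list had a median of -0.03 whose sign turned with library size alone and with 8 of the other settings (range -0.12 to 0.04). The count of 5 became 3 in the fit of the 12 libraries alone and without tagged IP replicate 1, tagged input replicate 1, untagged IP replicates 1 or 2, or untagged input replicate 3. The oxidase gene Tet3 was enriched by 3.01 (SE 0.27) and the methyl-CpG-binding Mbd2 by 2.55 (SE 0.16), whereas Dnmt3l, a co-factor of the de novo methyltransferases, was lower at -0.96 (SE 0.15) and the maintenance factor Uhrf1 at -0.86 (SE 0.18).

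Zinc finger genes with a Zfp number, many of them putative transcription factors, formed the largest list. Of 354 of them 160 were called higher (45.2%) and 31 lower (8.76%, median 0.43), where all genes gave 28.1% and 28.8%. The 31 falls became 17 without tagged input replicate 1, 18 without untagged IP replicate 2 or untagged input replicate 2, 19 without untagged IP replicate 3 and 20 without untagged input replicate 1. Zfp367 was listed at 13.7 to 30.2 CPM over the other 9 libraries and at 1939, 1730 and 1908 CPM in tagged IPs, an enrichment of 6.37, or 82.9-fold (SE 0.18, edgeR adjusted p 6.05e-18). Zfp768 and Zfp827 followed at 6.26 (SE 0.20) and 5.97 (SE 0.19). Zfp207, a spindle-associated zinc finger gene, was lower at -1.37 (SE 0.13).

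Zfp367, Zfp768 and Zfp827 were also among the 10 genes with the highest enrichment that met the rule for naming, of which Tnrc6a was first. Zbtb7a (chr10:81135225-81152222), a zinc finger repressor, was second, with 36.2 to 47 CPM over the untagged libraries and tagged inputs and 3586, 3337 and 3595 CPM in tagged IPs, an enrichment of 6.53, or 92.4-fold (SE 0.15, edgeR adjusted p 1.85e-19). The others were 9530068E07Rik at 6.26 (SE 0.20), the TGF-beta family ligand Gdf11 at 6.05 (SE 0.28), the Mediator kinase Cdk19 at 5.97 (SE 0.18), Tagap1 at 5.97 (SE 0.20) and the G protein subunit Gnb5 at 5.88 (SE 0.19). In all 10 the tagged IPs stood above every other library, and in untagged cells IP and input differed by at most 0.31 on the log2 scale.

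Genes for the cell surface and for transport were recovered selectively. Of 15 genes of heparan sulfate synthesis measured 11 were called higher and 1 lower, with a median of 1.39, or 1.22 with the floor applied to Hs3st3a1. Ndst1, which starts sulfation of the chain, was enriched by 3.76 (SE 0.16), and Hs6st1, a later sulfotransferase, rose from 119, 96.5 and 117 CPM to 1121, 1025 and 1264 CPM (enrichment 3.62, SE 0.16, edgeR adjusted p 2.09e-15). The gene called lower was Ext2, a subunit of the chain polymerase, with 14.9, 19.5 and 20.1 CPM in tagged IPs against 45.4, 39.6 and 45.7 CPM in tagged inputs (edgeR adjusted p 0.000179). Of 266 solute carriers 105 were called higher (39.5%) and 47 lower (17.7%), with a median of 0.17. Slc48a1, a haem transporter, was enriched by 4.33 (SE 0.14), while Slc25a5, the adenine nucleotide exchanger of mitochondria, was lower at -1.20 (SE 0.19). Of 25 plexins, neuropilins and semaphorins 10 were called higher (median 0.24), with Plxna1 at 2.80 (SE 0.22). The 1 called lower, Plxna3, lost its call without tagged IP replicate 2 or 3, tagged input replicate 1 or 3, untagged IP replicate 2 or untagged input replicate 3. Of 14 Hox genes measured 5 were called higher (35.7%, near the 28.1% of all genes), with a median of 0.52. With the floor applied to 3 of them the median was 0.67.

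Collagens, laminins and integrins had list medians below the -0.10 of all genes. Of 35 collagens and laminins 2 were called higher (5.71%) and 14 lower (40%, median -0.55), where all genes gave 28.1% and 28.8%. The 14 became 9, a count near that background, without untagged IP replicate 2 or untagged input replicate 1. Lamb1, a laminin chain, went from 119, 92.4 and 110 CPM in tagged inputs to 34.5, 39.9 and 37.5 CPM in tagged IPs (enrichment -1.07, SE 0.18). Of 18 integrins 3 were called higher (16.7%) and 7 lower (38.9%, median -0.55), with Itgb1, the common beta chain, at -0.85 (SE 0.15). The number of integrins called lower ranged from 5, near the background, to 8 over the alternative settings. None of 38 protocadherins was called either way by edgeR, where 2 were lower at an unadjusted p under 0.05 and DESeq2 called 0 (median -0.14), and without untagged IP replicate 1 edgeR called 7 of them lower. Of 33 ABC transporters 10 were called lower (30.3%, near the 28.8% of all genes) and 3 higher, or 6 higher without tagged input replicate 1 and 5 without untagged IP replicate 2 (median -0.17, or -0.03 with the floor applied to Abca8b).

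**Figure D3:**
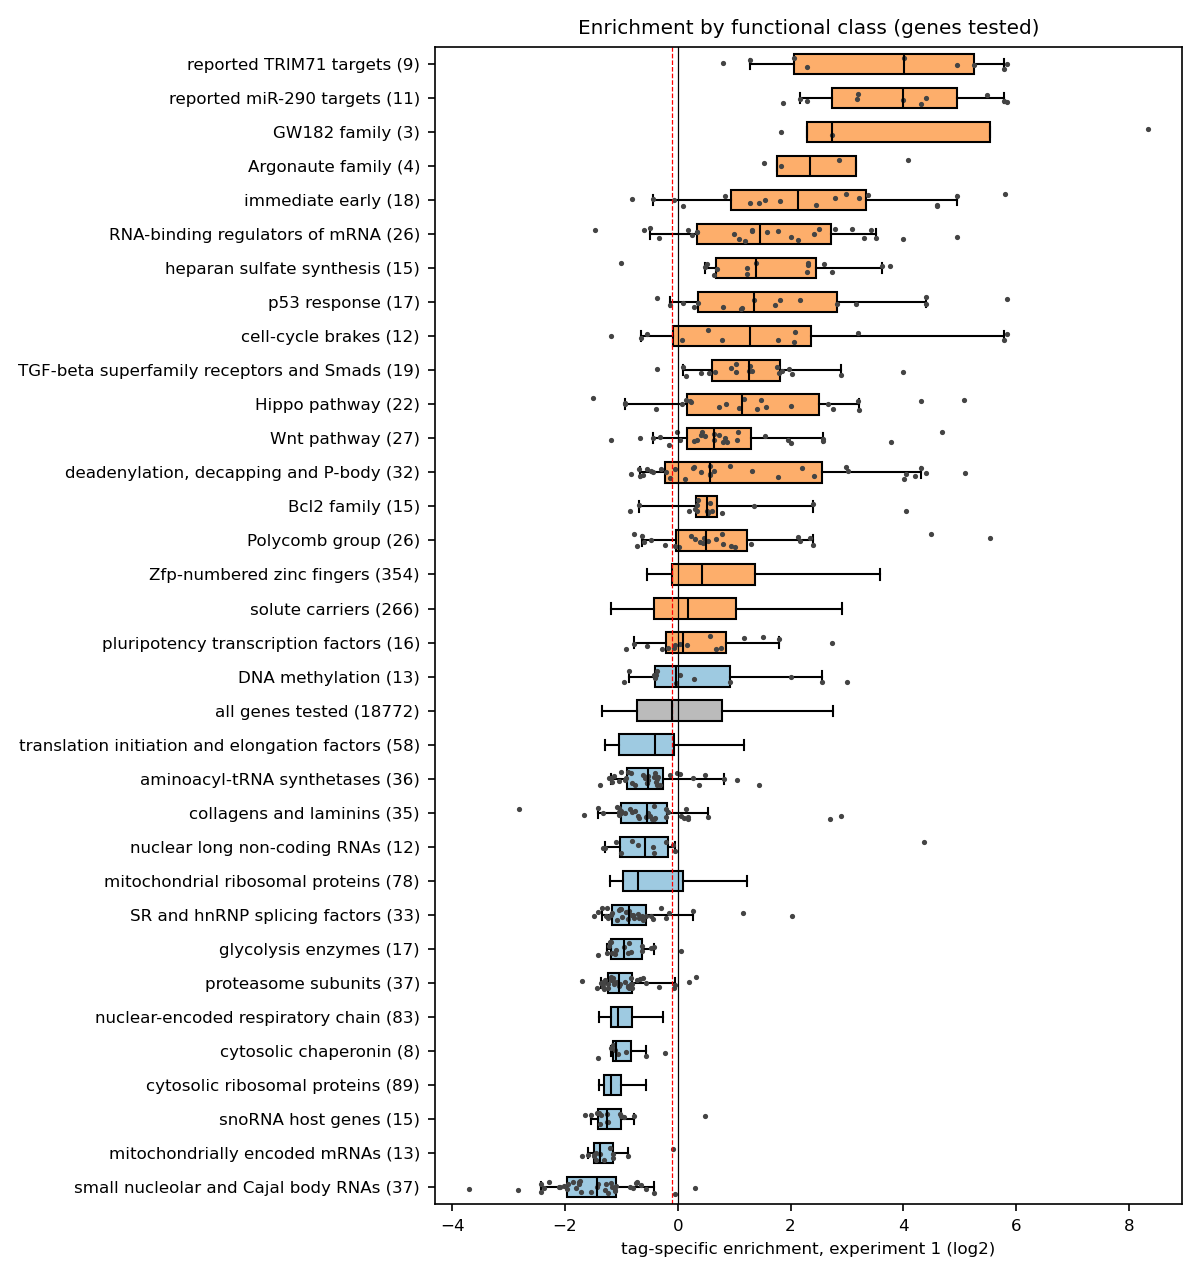
Tag-specific enrichment (log2) of the genes tested in each list, with the number of genes in brackets. Boxes span the quartiles with a line at the median, whiskers reach the 5th and 95th percentile, points are single genes of lists with fewer genes, orange and blue boxes have medians above and below 0, and the red dashed line is the median of all 18772 genes (grey box). Lists of regulators lie to the right and lists of ribosomal, mitochondrial and proteasomal genes to the left.

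Several housekeeping classes had list medians near or below -1. The 5 trophoblast markers measured, a list used to check the cells, had a median of -1.08 as well, with 2 called lower and 1 higher, which ranged from -1.21 to -0.17 over the alternative settings. Of 89 cytosolic ribosomal protein genes 84 (94.4%) were called lower and 3 higher, with a median of -1.18 against -0.10 over all genes and 28.8% of all genes called lower. As a class they took 6.53%, 8.74% and 7.54% of the counts in tagged inputs and 2.81%, 3.27% and 2.68% in tagged IPs, with no overlap. The untagged inputs held 7.51%, 7.58% and 7.39% and the untagged IPs 6.09%, 5.35% and 6.05%. Tagged input replicate 2 was thus the highest of the 12 libraries. Over the 19 alternative settings, those without that library included, the list median stayed between -1.28 and -1.01 and the number called lower at 83 or 84.

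Among single ribosomal protein genes, Rpl35 (chr2:39001581-39005131), of the large subunit, was listed at 521, 515 and 519 CPM in untagged inputs and 517, 479 and 506 CPM in untagged IPs. In tagged cells it went from 537, 840 and 581 CPM to 202, 265 and 220 CPM, a difference of -1.46 (SE 0.28, edgeR adjusted p 8.76e-05). Rpl36a and Rps25 were lower at -1.42 (SE 0.28) and -1.40 (SE 0.23). The 3 called higher were Rps27 at 0.80 (SE 0.18), the related gene Rps27rt at 0.89 (SE 0.20) and Rpl7l1, a paralogue of a ribosomal protein gene, at 0.86 (SE 0.13). Rps27 stood at 660, 535 and 581 CPM in tagged IPs and 288, 410 and 329 CPM in tagged inputs. How reads were split between near-identical copies is not given in the sources used here, so the values of Rps27 and Rps27rt are uncertain. Of 136 rows named as ribosomal protein pseudogenes 103 were called lower and 1 higher (median -1.06, or -1.04 with the floor applied to 4 of them), and the same limit holds for them.

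Mitochondrial genes followed. Of 83 nuclear-encoded subunits of the respiratory chain 75 (90.4%) were called lower and the other 8 did not pass (median -1.06), although 1 was called higher without tagged IP replicate 3 and 2 without tagged input replicate 2. Ndufa12, a subunit of complex I, went from 53.5, 74.5 and 61.7 CPM to 32.9, 35.7 and 33.1 CPM in tagged cells, against 58.6, 51.6 and 55 CPM and 79.7, 95.5 and 87.4 CPM in untagged inputs and IPs (enrichment -1.57, SE 0.18, edgeR adjusted p 6.46e-08). Mitochondrial ribosomal proteins were less uniform, 50 of 78 being lower (64.1%, against 28.8% of all genes) and 13 higher (16.7%, against 28.1%; median -0.71). Mrpl23 was lower at -1.53 (SE 0.22), while Mrps25 went up from 35.6, 39.5 and 37.6 CPM to 177, 157 and 190 CPM (enrichment 2.26, SE 0.15).

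The mRNAs made inside mitochondria fell furthest in the tagged IPs among the protein-coding classes. Of 13 of them 12 were called lower (median -1.38), and their median ratio of IP to input was -2.06 in tagged cells and -0.81 in untagged cells. ND1, a complex I subunit, was listed at 1110, 1207 and 1255 CPM in untagged inputs and 1087, 1212 and 1226 CPM in untagged IPs. In tagged cells it went from 2391, 3078 and 2379 CPM to 719, 927 and 751 CPM, a difference of -1.69 (SE 0.18, edgeR adjusted p 1.7e-08). Inputs bear on this value, because tagged inputs held more of these RNAs than untagged ones, with a class total of 1.97%, 2.06% and 1.79% of counts against 1.1%, 1.06% and 1.11%. In the IPs the class took 0.403%, 0.52% and 0.371% with the tag and 0.581%, 0.569% and 0.612% without it, so the tagged IPs were lowest by that measure too. The 1 gene not called lay at -0.09.

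Protein folding, turnover and synthesis shared the direction. Of 37 proteasome subunits 33 were called lower (median -1.04), and none of the other 4 passed the test by edgeR, where 1 was higher at an unadjusted p under 0.05 and 1 was called by DESeq2, and also by edgeR without tagged IP replicate 3. Psmb3, a core subunit, went from 174, 211 and 193 CPM to 78.5, 94.9 and 84.8 CPM in tagged cells, below untagged inputs and IPs at 179, 176 and 174 CPM and 212, 212 and 215 CPM (enrichment -1.43, SE 0.17, edgeR adjusted p 2.04e-07). Of the 8 chaperonin subunits, which fold actin and tubulin, 7 were called lower (median -1.09). Cct5 was the lowest at -1.41 (SE 0.17), and Cct2, at -0.23 (SE 0.12), did not pass. Of 36 aminoacyl-tRNA synthetases 25 were called lower (69.4%, against 28.8% of all genes) and 5 higher (13.9%, against 28.1%), with a median of -0.52. The 3 highest, Wars2 at 1.44 (SE 0.21), Mars2 at 1.05 (SE 0.16) and Pars2 at 0.82 (SE 0.17), encode mitochondrial enzymes, and the 3 lowest, Rars at -1.38 (SE 0.20), Nars at -1.22 (SE 0.21) and Lars at -1.19 (SE 0.16), cytosolic ones.

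Translation factors were divided as well, with 31 of 58 called lower and 7 higher (median -0.40). Subunits of the initiation factor eIF3 were among the lowest, with Eif3d at -1.39 (SE 0.21), Eif3g at -1.36 (SE 0.21) and Eif3m at -1.29 (SE 0.17). Eif4h, an activator of the helicase eIF4A, was enriched by 1.29 (SE 0.12), and Eif4e2, a cap-binding repressor, by 1.17 (SE 0.12). Of 17 glycolysis enzymes 16 were called lower (median -0.96), and Pkm, the last enzyme of the pathway, went from 1991, 2097 and 2210 CPM to 840, 1215 and 1144 CPM in tagged cells (enrichment -1.26, SE 0.19). Of 33 SR and hnRNP splicing factors 28 were called lower and 2 higher (median -0.86). Hnrnpa2b1 was lower at -1.49 (SE 0.18), whereas Hnrnpul1 rose from 247, 203 and 232 CPM to 845, 792 and 910 CPM (enrichment 2.03, SE 0.13). Of 41 replication-dependent histone genes 11 were called lower (26.8%, near the 28.8% of all genes) and 1 higher, with a median of -0.59. The 11 became 7 without untagged IP replicate 1 or with a block for each culture.

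Non-coding RNAs are given by kind. Of 12 nuclear long non-coding RNAs on the list 6 were called lower (50%) and 1 higher (8.33%), with a median of -0.58. Over all genes 28.8% were called lower and 28.1% higher. Malat1, which stays in nuclear speckles, held 109, 87.9 and 87.6 CPM in tagged inputs and 58, 59.8 and 63.3 CPM in tagged IPs, and 123, 107 and 122 CPM and 163, 201 and 203 CPM in untagged ones (enrichment -1.33, SE 0.16, edgeR adjusted p 1.21e-07). The 1 called higher was H19 (chr7:142575530-142578146), an imprinted transcript that also occurs in the cytoplasm and carries the precursor of miR-675. It was listed at 3.07, 2.96 and 3.07 CPM and 2.74, 1.48 and 2.95 CPM in untagged inputs and IPs, 3.51, 4.47 and 4.35 CPM in tagged inputs and 76.4, 52.7 and 71.2 CPM in tagged IPs, an enrichment of 4.36, or 20.5-fold (SE 0.26, edgeR adjusted p 8.6e-13). H19 thus differed in direction from the other called members of the list.

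Small nucleolar and Cajal body RNAs were called lower in 20 of 37 cases (54.1%, against 28.8% of all genes), and the other 17 did not pass. The median of these RNAs was -1.43, or -1.41 with the floor applied to Snora3 and Snord104. Their median ratio of IP to input was -0.92 with the tag and 0.54 without it, so part of the difference lay in the untagged IP. Their host genes fell in 11 of 15 cases (median -1.26), for example Snhg12 from 51.4, 59.5 and 49.3 CPM to 23.5, 26.2 and 20.9 CPM in tagged cells (enrichment -1.54, SE 0.15). The 1 host gene called higher, Snhg15 at 0.49 (SE 0.20), lost its call without tagged IP replicate 1, where it stood at 0.23, without tagged input replicate 1 (0.42) or 3 (0.48), without untagged IP replicate 1 (0.51) and without untagged input replicate 2 (0.48). Reads on such rows can belong to the host transcript.

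Rows named for microRNA precursors and their hosts were read with the same caution. Of 62 such rows 10 were called higher (16.1%) and 16 lower (25.8%), both under the 28.1% and 28.8% of all genes, with a median of -0.45 that the floor, applied to 8 of them, did not move. Of the 6 precursors of the miR-290 cluster 3 were called lower (median -1.36), whereas the genes reported as miR-290 targets were called higher. The precursors' median ratio of IP to input was -0.75 with the tag and 0.98 without it, so part of the difference lay in the untagged IP. In experiment 2 edgeR and DESeq2 called 0 of 6 either way (median -0.53). Mir294 held 0.609, 0.461 and 0.465 CPM in tagged IPs and 1.23, 0.86 and 1.4 CPM in tagged inputs, and 1.41, 2.11 and 2.55 CPM and 0.444, 0.37 and 0.803 CPM in untagged IPs and inputs (difference -3.09, SE 0.60, edgeR adjusted p 0.000115). Mir291b stood at -1.78 (SE 0.35), and Mir292b at -2.02 (SE 0.70), which did not pass without tagged input replicate 1. Such rows can count the long primary transcript, and the mature microRNA in Argonaute was not measured. By the RefSeq gene types, 4489 of 13928 protein-coding genes were called higher (32.2%) and 4088 lower (29.4%, median -0.02). Both shares were near the 28.1% and 28.8% of all genes. Of 825 pseudogenes 53 were called higher (6.42%) and 421 lower (51%, median -0.90). Of 615 long non-coding RNAs 146 were called higher (23.7%) and 116 lower (18.9%, median -0.03), both under the shares of all genes.

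Another kind of gene was recovered in the IP without the tag. The untagged IPs were at least 2-fold over input for 331 genes (1.76%), or 259 without untagged IP replicate 2, and in the enrichment 203 of these were called lower and 21 higher, with a median of -1.05. In tagged cells the median ratio of IP to input for the 331 genes was 0.82, against 1.55 in untagged cells, and 262 of them lay above input. For the 42 genes at least 8-fold over input in untagged IPs, all 42 lay above input in tagged cells too, with medians of 2.80 with the tag and 4.43 without it, and 31 were called lower. These genes were chosen by the untagged ratio, which enters the enrichment, so the counts are a description. For most of these genes a negative enrichment thus stood beside a tagged IP above its own input.

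Bcar1 (chr8:111710474-111743849), an adaptor protein of focal adhesions, was the clearest case. It was listed at 79.1, 72.4 and 68.6 CPM in untagged inputs and 108399, 145549 and 112894 CPM in untagged IPs. In tagged cells it went from 65.7, 59.4 and 67.5 CPM to 23310, 23384 and 33026 CPM. The row made up 9.645% to 12.094% of all counts of an untagged IP and 2.013% to 2.729% of a tagged IP, and its enrichment was -2.01 (SE 0.29, edgeR adjusted p 3.23e-06).

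By the rule for naming, which asks for a mean log2 CPM of at least 2 and groups that do not overlap, the other 9 genes with the largest falls began with Lama4, a laminin chain, at -2.81 (SE 0.48). Etl4 followed at -2.54 (SE 0.22) and Akap9, a centrosomal anchor of protein kinase A, at -2.36 (SE 0.20). Fip1l1, a polyadenylation factor, stood at -2.27 (SE 0.54) and the centrosomal gene Cep350 at -2.19 (SE 0.25). Each of these was high in the untagged IPs. Serf1 stood at -2.15 (SE 0.26), the endosomal Rab11 effector Rab11fip5 at -2.14 (SE 0.43), Gpr179 at -2.11 (SE 0.66) and Efs at -2.09 (SE 0.32). Efs belongs to the same protein family as Bcar1, and its tagged IPs held 741, 850 and 1117 CPM against inputs of 12.8, 14.7 and 13.4 CPM. Gpr179 did not pass without tagged input replicate 3, where it stood at -1.75. All but Serf1 were above input in tagged IPs as well, and Serf1 was at -0.47 there and at 1.68 in untagged cells. The 5 functional classes of protein-coding genes with the lowest medians, marker lists left out, by contrast had median untagged ratios between -0.81 and 0.06.

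Length and abundance of the gene were related to which side it fell on. Among 13928 protein-coding genes in 5 bins of gene length as the deposited table gives it, the share called higher was 15.5% in the shortest bin (204 to 2467 bases), then 27.8%, 36.4% and 38.8%, and 42.5% in the longest (7535 to 123179 bases). The share called lower went from 40.1% in the shortest over 31.8%, 28.5% and 25.1% to 21.2% in the longest. In 5 bins of input CPM, 7.36% of the lowest bin and 54.2% of the highest were called lower, and the shares called higher were 21.5%, 35.3%, 40.9%, 39.3% and 24.1% from lowest to highest. Genes of the lowest bin have few counts. Both features held together in the highest bin of input CPM, where 324 of the 404 shortest genes (80.2%) and 279 of the 696 longest (40.1%) were called lower. Gene length and level are features of the genes that share the same 12 libraries, and the part of either in the values of a functional class was not tested.

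**Figure D4:**
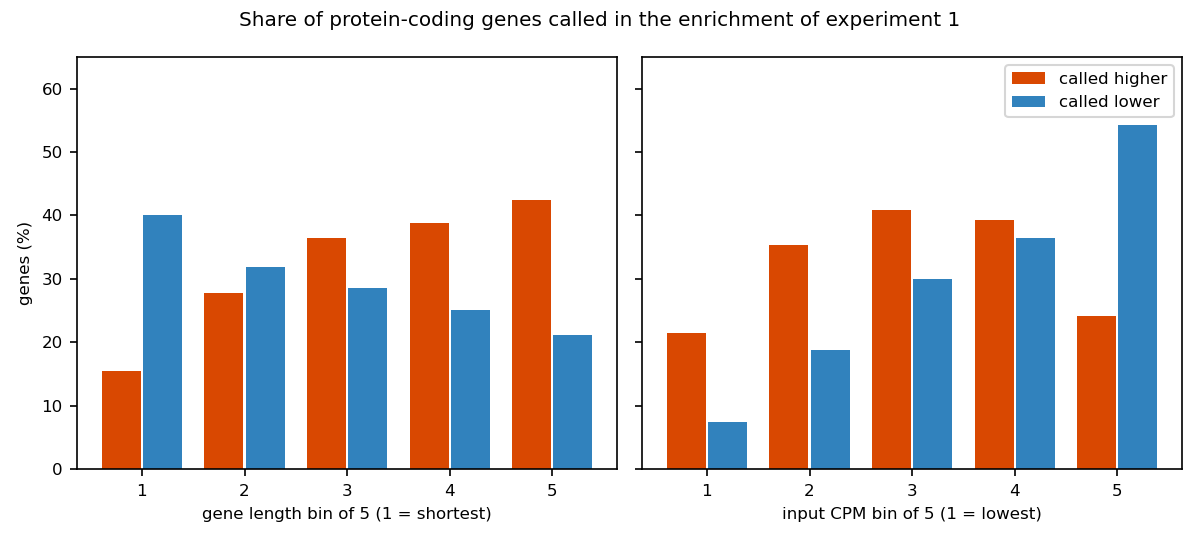
Share of 13928 protein-coding genes called higher (orange) or lower (blue) in the tag-specific enrichment, in 5 bins of gene length (left) and of mean input CPM (right). The share called higher is lowest among the shortest genes, at 15.5%, and the share called lower is highest among the most abundant genes, at 54.2%.

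Experiment 2 measured the same genotypes in 12 further libraries, processed and fitted separately, and gave the same comparison with smaller values. It called 5479 of 19778 genes (27.7%), 3745 higher (18.9%) and 1734 lower (8.77%). With library size alone it called 7832 genes, with 36.5% of them on the higher side in place of 68.4%, and the median of all genes moved from -0.03 to -0.24. Of the 5233 genes called higher in experiment 1 and tested in both, 3516 (67.2%) were called higher in experiment 2 and 1 was called lower. Of 5395 genes called lower, 1397 (25.9%) were called lower and 9 higher. The median enrichment of these gene sets went from 1.42 to 0.71 and from -0.89 to -0.24. The difference between the experiments was not tested.

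By class, experiment 2 called all 10 of the miR-290 targets it tested higher (median 2.56) and 7 of 8 TRIM71 targets (median 1.78). Cdkn1a was enriched by 4.65, Casp2 by 4.01, Ccne2 by 4.78, Zbtb7a by 5.60 and H19 by 3.13 there, and all 5 were called by edgeR. The Argonaute and GW182 genes were all called higher again, with medians of 1.91 and 1.83. Ribosomal protein genes were called lower in 66 of 89 cases (median -0.35), respiratory chain subunits in 47 of 85 (median -0.31) and mitochondrially encoded mRNAs in 11 of 13 (median -0.79), or in 6 and 7 without replicate 1 of the tagged or of the untagged inputs of that experiment. Of the 17 glycolysis enzymes edgeR called 0 lower there, where 5 were lower at an unadjusted p under 0.05 and DESeq2 called 3 (median -0.12). Library size alone raised that count to 10, and leaving out tagged input replicate 1 of experiment 2 to 4. Of the 10 genes with the largest falls in experiment 1, Akap9 was called higher in experiment 2, at 0.75 (edgeR adjusted p 0.0331), and the other 9 did not pass, with Bcar1 at 0.20, Lama4 at 0.99 and Etl4 at 0.23. Of 40 small nucleolar and Cajal body RNAs tested there 2 were called lower (5%), under the 8.77% of all genes, with a median of -0.51, and of 15 snoRNA host genes 7 (median -0.32).

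**Figure D5:**
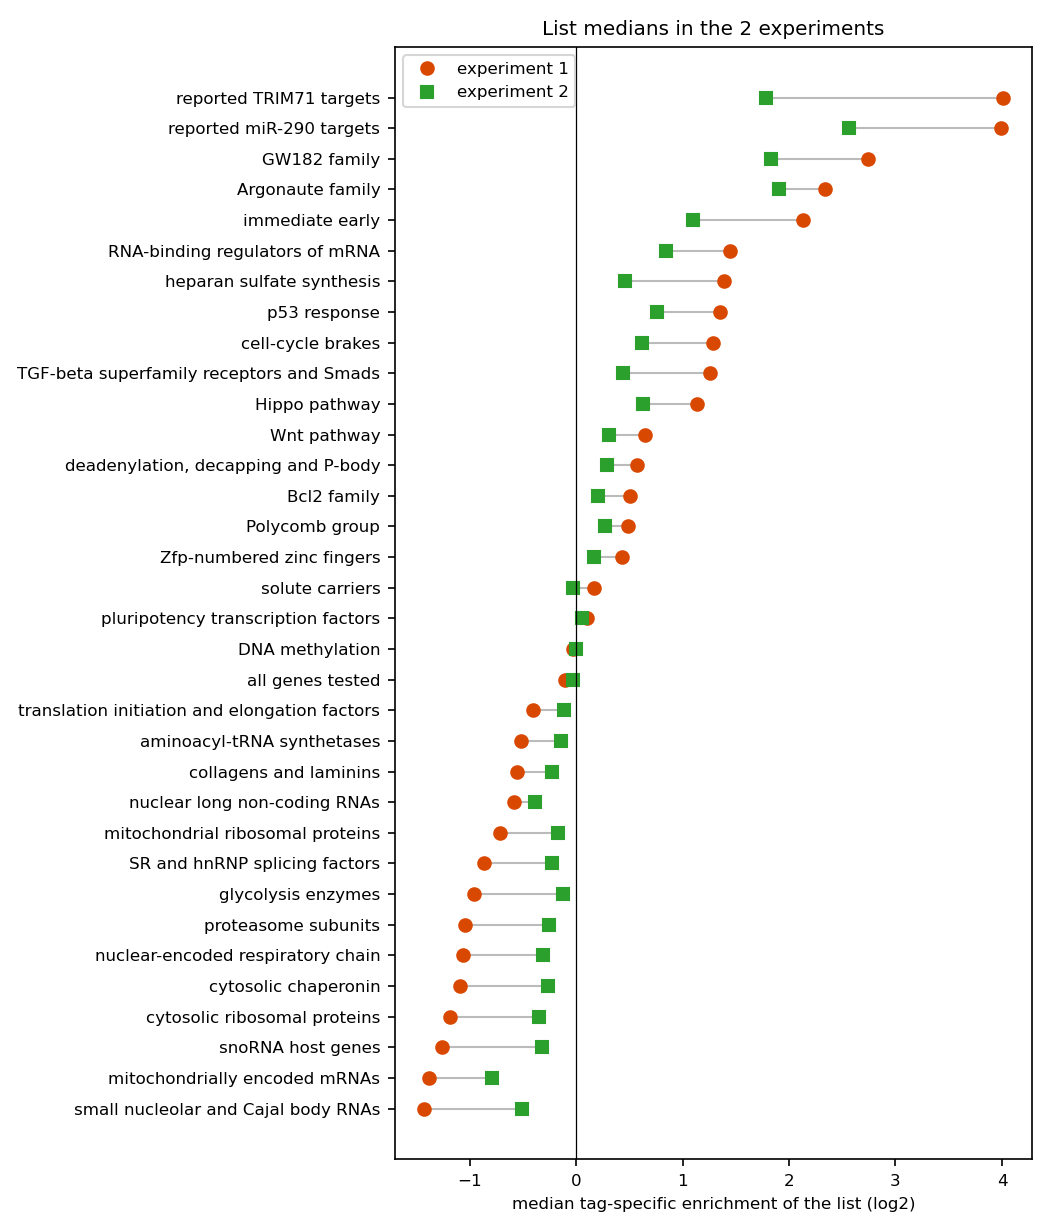
Median tag-specific enrichment (log2) of each list in experiment 1 (circles) and experiment 2 (squares), joined by a line. Medians of experiment 2 lie nearer to 0 in nearly every list shown, for example 2.56 against 3.99 for the reported miR-290 targets and -0.35 against -1.18 for the cytosolic ribosomal proteins.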

How the data were processed

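Per the submitters' processing notes, the builds GRCm38 and mm10, STAR 2.7.3a and bcl2fastq 2.20 were used, and the counting tool, its annotation and its handling of strand and overlaps are not given in the sources used here. The authors deposited raw read counts per gene, RPKM values and gene lengths for each experiment. The deposited RPKM values were not used in any test. Each of the 18825 genes of experiment 1 reached at least 9 counts in some library. No column was left unmapped, and no row lacked a gene. Of 15631 rows with a symbol 15621 were matched to RefSeq by Entrez ID, and 3194 rows had none.

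Counts were scaled by TMM, genes with few counts were removed with filterByExpr, and a quasi-likelihood model was fitted with edgeR 4.0.16 (limma 3.58.1, R 4.3.3) to all 18 libraries of experiment 1, including 6 of a Trim71 knockout that enter only the estimate of the spread. The enrichment is an interaction contrast, with SE from the F statistic. Differences of at least 2-fold are called genes with a log2 change of 1 or more. The procedure was tested on simulated counts of 18513 genes, few of which were changed. It recovered 45 of 97 log2 changes of 1 (46.4%) and 85 of 98 log2 changes of 2 (86.7%). Of the calls there 2.99% were false. Changes as widespread as those measured here were not simulated. Experiment 2 was fitted alike with its own 24 libraries. DESeq2 1.42.0, other scalings, no filter, the 12 libraries alone, replicate blocks and omission of each library were the alternatives.

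The genes named are Tnrc6a, Ago2, Trim71, the 10 with the largest change each way that were called, had a mean log2 CPM of at least 2 and did not overlap, members of lists of up to 12 genes, and up to 3 each way of longer lists. The members and lists were chosen with earlier results of these data known, and the lists of ribosomal protein pseudogenes and of miR-290 precursors were added after the values were seen. ENSMUSG00000114942, Plxna3 and the members of lists given by their floor were named after their values were seen. Replicate numbers were not used to pair the libraries, except in the replicate blocks.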

Additional observations from a re-analysis of the deposited data

How the results depend on the processing

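The tag-specific enrichment kept between 10017 and 10703 calls over its alternatives, and no named gene that was called in experiment 1 changed sign, among 5526 combinations of named gene and setting, called or not, 5368 of which stayed on the same side of the threshold, while 141 lost it and 17 gained it. Of 1045 list medians 18 moved by more than the tolerance used, and 2 of 55 lists changed sign under some setting, DNA methylation and olfactory receptors. Library size alone gave 4645 genes at least 2-fold lower in tagged IPs against input. In untagged IPs it gave 10201 calls, 498 higher and 9703 lower, with 199 at least 2-fold higher and 590 at least 2-fold lower. The same scaling gave 704 genes higher in tagged inputs, and DESeq2 gave 1646. In experiment 2 library size alone gave 4971 genes called lower and 375 at least 2-fold lower. The cause was not tested.

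Whether replicate numbers mark shared cultures is not given in the sources used here. Deviations of libraries with the same number from their group means correlated between -0.093 and 0.05 over 18 pairs. These pairs include libraries of different lines, and 3 libraries per group are too few to decide it. With the replicate block the enrichment kept 10581 calls, and 10333 with a block for each culture. In untagged IPs the replicate block gave 1101 calls, 760 higher and 341 lower, and 29 at least 2-fold lower, and the block by culture also gave 29.

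Leaving out 1 library at a time, untagged IP against input ranged from 1370 to 2725 calls, 869 to 1425 higher and 501 to 1300 lower, with 28 to 59 at least 2-fold lower. Tagged against untagged inputs ranged from 722 to 3053 calls, 486 to 1702 higher and 236 to 1351 lower, with 42 to 208 at least 2-fold lower. Depth limits the calls among genes of low input level, and 3 libraries per group limit the precision of every value.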
